A study of Mus musculus with 12 samples.

Results

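The hippocampus of ICR mice injected with amyloid beta (Aβ) was compared with that of ICR mice injected with streptozotocin. Of the 12 mouse arrays of the series, 4 belong to this comparison, 2 of Aβ, given at 5 or 10 µM, and 2 of streptozotocin, given at 2.5 mg/kg or at 3 mg/kg. The mice of all 4 arrays were ICR males, 7 weeks of age at the start, that had received the agent by intracerebroventricular (i.c.v.) injection and whose tissue was taken 14 days later. The animals of all groups had gone without food overnight. Each array carried RNA pooled from 3 animals, so it is 1 sample, and the 2 arrays of an agent differ in dose. The spread within an agent is therefore the spread between doses, and p-values measure only that spread. The fifth ICR array, of hippocampus 30 min after an intraperitoneal injection of 1 mg/kg scopolamine, and 7 arrays of C57BL/6 mice (hippocampus of the transgenic models NCSTN, MAPT and 5xFAD and prefrontal cortex at 1.5, 4, 17 and 22 months of age) were used for reference. Hippocampus arrays of vehicle-injected or normal ICR mice were not analysed here, so a gene higher with Aβ cannot be told from a gene lower with streptozotocin.

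Both agents are given into the ventricle to make models of Alzheimer disease. Aggregated Aβ is the peptide of amyloid plaques. It is toxic to synapses and activates microglia, the resident macrophages of the brain, and astrocytes. Streptozotocin is a glucose analogue with a nitrosourea group that alkylates DNA. It enters cells through the glucose transporter GLUT2 and destroys pancreatic beta cells, and given into the brain it is used to impair insulin signalling. The ventricle is lined by ependymal cells, which carry motile cilia, and holds the choroid plexus, an epithelium that secretes the cerebrospinal fluid and makes transthyretin. The choroid plexus of the lateral ventricle lies against the hippocampus, and the surface of the hippocampus is covered by meninges, whose fibroblasts make collagens and small proteoglycans.

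Values are log2 of the processed signal of Agilent 1-colour arrays after quantile normalization, which gives all 12 arrays the same distribution, with the probes of a gene averaged. All 7 defining markers of hippocampal neurons measured were well above background on all 4 arrays by the flag of the scanner software. Prox1, the transcription factor of dentate granule cells, had signals of 8.04 and 8.22 on the Aβ arrays and of 8.09 and 8.0 on the streptozotocin arrays, with the ranges overlapping. Fibcd1 overlapped too. The other markers did not. Wfs1 (difference of means -0.94), Neurod6 (-0.32), Slc17a7 (-0.18) and Neurod2 (-0.15) were higher on both streptozotocin arrays, and Zbtb20 (0.12) was higher on both Aβ arrays. Between 63.5% and 67.5% of the probes were well above background on the 4 arrays. Before normalization the median processed signal was 134 and 102 on the Aβ arrays and 90.3 and 91.2 on the streptozotocin arrays, so brightness moved with the agent, and its part in the differences of dim genes was not tested.

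A gene was called separated where both arrays of one agent lay above both arrays of the other. Of 19647 genes, 3885 (19.8%) were separated with the higher values on the Aβ arrays and 5388 (27.4%) with the higher values on the streptozotocin arrays, 9273 (47.2%) in all. Most of these differences were small, since the median absolute difference between an Aβ and a streptozotocin array was between 0.14 and 0.21, against 0.14 between the Aβ arrays and 0.13 between the streptozotocin arrays. Requiring in addition a difference of means of at least 1, that is 2-fold, left 846 genes higher with Aβ (4.31% of all genes) and 287 higher with streptozotocin (1.46%). The median size was 1.64 among the 846 genes and 1.33 among the 287 genes. Differences of at least 8-fold were found for 79 genes higher with Aβ and 6 higher with streptozotocin. A further 150 and 91 genes had means at least 2-fold apart but overlapped.

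The genes higher with streptozotocin were mostly dim. Among the 4912 genes of lowest mean signal, 331 were at least 2-fold higher with Aβ and 227 with streptozotocin, whereas among the 4912 genes of highest mean signal the counts were 50 and 3. Among genes well above background on both arrays of the brighter agent, 600 were higher with Aβ and 74 with streptozotocin, which makes 89.0% of them Aβ genes, against 74.7% among all genes. The flag was not equal between the agents. The dimmest signal that passed it was 2.40 and 2.97 on the Aβ arrays and 3.69 and 3.35 on the streptozotocin arrays. The part of this in the 89.0% was not tested. Among genes well above background on all 4 arrays the counts were 379 and 38. After normexp background correction, which draws dim signals together, the counts were 257 and 8. At the limit of the rule, H4c14 (difference 1.0) was just inside and Mvp (1.0, below the limit before rounding) just outside on the Aβ side, and Hpd and Cbln2 (both -1.0) on the streptozotocin side.

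**Figure D1:**
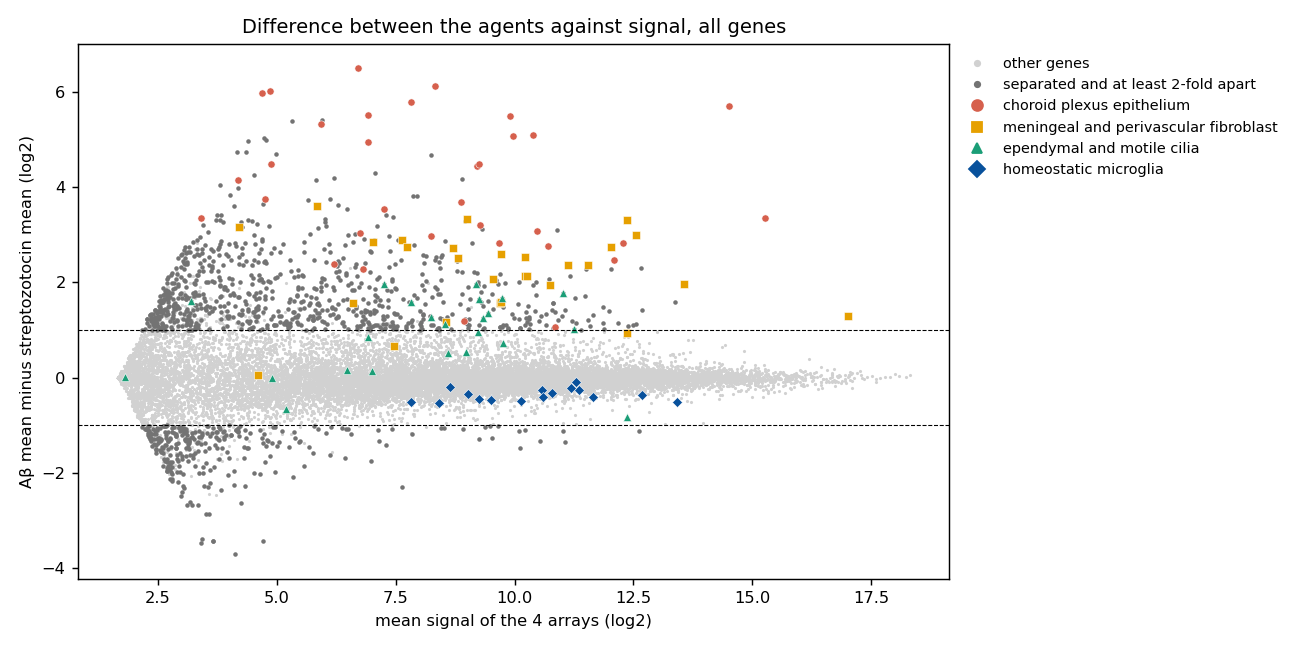
Difference between the mean of the 2 Aβ arrays and the mean of the 2 streptozotocin arrays (vertical axis, log2) against the mean signal of the 4 arrays (horizontal axis, log2), 1 point per gene for 19647 genes. Dark grey points are the 1133 genes separated and at least 2-fold apart, dashed lines mark 2-fold, and coloured symbols are members of 4 gene lists. All 33 choroid plexus genes lie above the upper line, and the 16 microglial genes lie between 0 and the lower line.

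No gene passed limma's moderated test between the agents at a Benjamini-Hochberg adjusted p under 0.05 over all genes (0% of 19647), and the smallest adjusted p was 0.0556. At an unadjusted p under 0.05 the limma test gave 2474 genes (12.6%), 1361 higher with Aβ (6.93%) and 1113 higher with streptozotocin (5.66%). The limma count depended on the processing. It was 49 with scaling to the 75th percentile, 52 with the deposited matrix, 166 for probes well above background and 249 after normexp. In all, 31 genes were called by limma in every one of these 4 settings, all higher with Aβ, and 16 of them belong to the choroid plexus list. The other 15 included Ins1 and Ins2, the melanocortin receptor gene Mc3r, the ion channel gene Trpm3 and the cilia genes Cfap126, Dnah11 and Hoatz. With 2 arrays against 2, an exact permutation test of a single gene cannot give a two-sided p below 0.333.

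The largest differences were those of choroid plexus epithelium. All 33 measured members of a list of its genes were separated and at least 2-fold higher with Aβ, beside 4.31% of all genes. The median difference was 3.75, or 13.5-fold, beside -0.03 over all genes, and for the pairs of 1 Aβ and 1 streptozotocin array it lay between 3.34 and 4.23. The mean log2 signal of the list was 10.26 and 10.51 on the Aβ arrays and 6.14 and 6.58 on the streptozotocin arrays. All 33 members were well above background on each Aβ array, and 23 and 25 of them on the 2 streptozotocin arrays.

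Ttr encodes transthyretin, the thyroxine carrier of the cerebrospinal fluid. It had signals of 17.35 and 17.41 on the Aβ arrays and of 11.27 and 12.06 on the streptozotocin arrays, a difference of 5.71 or 52.3-fold. Both streptozotocin arrays were still well above background for Ttr. Kcne2, a potassium channel subunit of the apical membrane, had 11.25 and 11.50 with Aβ and 5.18 and 5.33 with streptozotocin, 69.7-fold apart. Kcnj13, another potassium channel of this epithelium, had 12.55 and 12.75 with Aβ and 6.32 and 8.01 with streptozotocin, so that the streptozotocin arrays differed from each other by more than the Aβ arrays did. Otx2, the transcription factor that maintains the epithelium, had 11.34 and 11.64 against 6.76 and 7.25. Aqp1, the apical water channel, had 10.72 and 10.73 against 4.58 and 5.29.

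Some members were not well above background on any streptozotocin array, and for these only a lower limit of the fold can be given. It sets the mean with Aβ against, for each streptozotocin array, the gene's own signal or, if that is lower, the dimmest probe of the array that still passed the background flag. Folr1, the folate receptor that moves folate into the cerebrospinal fluid, had 7.88 and 7.84 with Aβ and 1.73 and 1.95 with streptozotocin, at least 20.3-fold higher. Slc4a5, a sodium bicarbonate cotransporter, was at least 33.6-fold higher and Steap1, a metalloreductase, at least 45.9-fold higher. The members with the smallest differences were Cab39l (11.22 and 11.57 against 10.30 and 10.34) and Msx1 (9.48 and 9.59 against 8.17 and 8.53). Both genes are also used by other cells of the brain.

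The reference arrays place these values. On the scopolamine array the list had a mean signal of 10.47, all 33 members lay on the Aβ side of the midpoint, and Ttr was 17.33. On the 3 arrays of transgenic hippocampus the mean was between 9.20 and 9.79, and on the 4 arrays of cortex, a region with no choroid plexus of its own, between 5.36 and 7.40. The 2 streptozotocin arrays thus had the lowest values among the hippocampus arrays. In RNA of whole tissue, fewer cells of a type and less RNA per cell cannot be told apart, and neither can a loss of choroid plexus cells in the animal and a dissection that left the plexus behind.

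**Figure D2:**
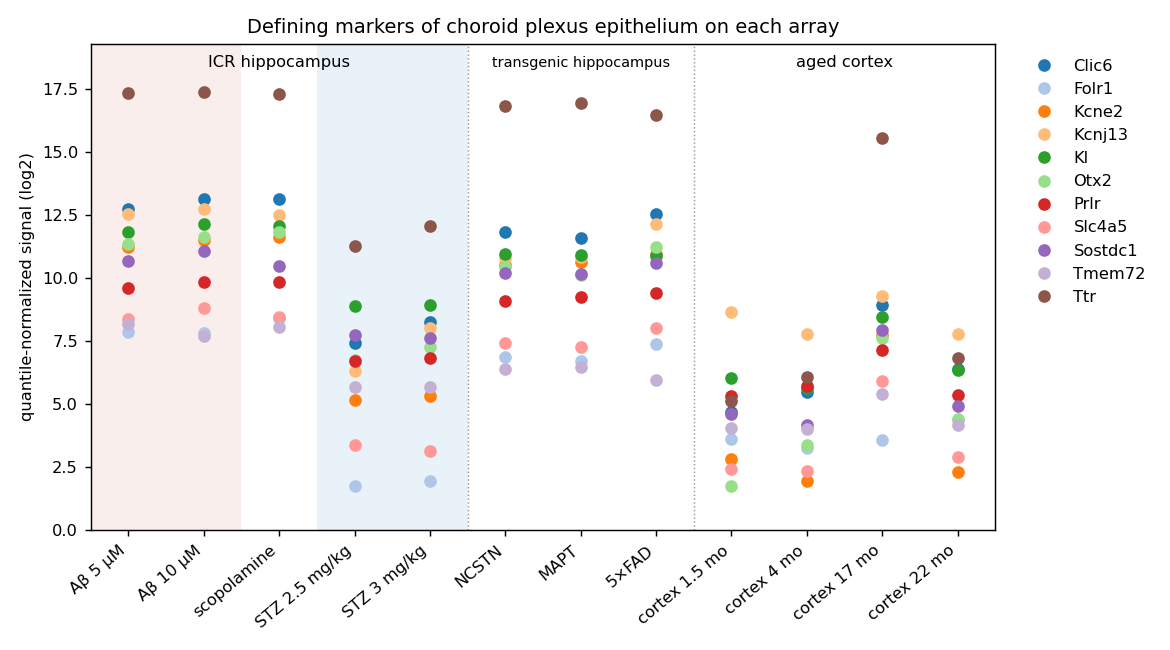
Quantile-normalized log2 signal (vertical axis) of 11 defining markers of choroid plexus epithelium on each of the 12 arrays (horizontal axis), 1 point per gene and array. The Aβ arrays (red band), the scopolamine array and the transgenic hippocampus arrays hold Ttr above 16, whereas the streptozotocin arrays (blue band) hold it at 11.27 and 12.06.

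Ependymal genes differed less and in the same direction. Of 23 measured genes of motile cilia and ependyma, 18 were separated with higher values with Aβ, 12 of them at least 2-fold, and 2 were separated with higher values with streptozotocin. The shares of all genes were 19.8% (4.31% at least 2-fold) and 27.4%. The median difference was 1.01, and it varied little between array pairs (0.96 to 1.07). Foxj1, the master regulator of motile cilia, had 9.06 and 9.14 on the Aβ arrays and 8.16 and 7.80 on the streptozotocin arrays. Cfap126, a protein of the cilium base, had 10.15 and 10.17 against 8.16 and 8.23, and both of its probes had differences of at least 1.92. Spef2, a sperm flagellar and ciliary protein, went the other way, with 12.10 and 11.83 against 12.91 and 12.65. On the scopolamine array 21 of the 23 genes lay on the Aβ side, many of them above both Aβ arrays, as Tekt1 (10.52, against 10.04 and 10.12 with Aβ).

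Genes of meningeal and perivascular fibroblasts formed the other large group, with a pattern of their own. Of 28 members, 27 were separated and 25 at least 2-fold higher with Aβ (19.8% and 4.31% of all genes), with a median difference of 2.36. This list split the streptozotocin arrays. The mean log2 signal was 10.93 and 10.48 on the Aβ arrays, 7.72 at 2.5 mg/kg of streptozotocin and 9.28 at 3 mg/kg. The median difference was 3.10 without the 3 mg/kg array and 1.46 without the 2.5 mg/kg array. Slc13a4, a sulfate transporter of the meninges, had 14.27 and 13.78 with Aβ, 9.62 with streptozotocin at 2.5 mg/kg and 11.83 at 3 mg/kg. Dcn, which encodes the proteoglycan decorin, had 14.76 and 14.34 against 11.54 and 13.61. Col1a2, a chain of type I collagen, had 12.99 and 12.45 against 9.61 and 11.10. Slc22a2, an organic cation transporter, was not well above background at 2.5 mg/kg (1.75) and had 6.32 at 3 mg/kg, beside 7.53 and 7.74 with Aβ.

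The scopolamine array did not follow the Aβ arrays for the fibroblast genes. Its mean signal was 8.85, between the streptozotocin arrays, and only 4 of 28 members lay on the Aβ side of the midpoint. Igf2, a growth factor made by meninges and choroid plexus stroma, was one of these, with 9.23 and 8.93 with Aβ, 5.57 and 6.81 with streptozotocin and 7.98 with scopolamine. All 8 defining markers of fibroblasts were well above background on all 4 arrays. The mean signal of the list on the reference arrays was 8.47 to 9.12 in transgenic hippocampus and 9.05 to 9.82 in cortex, so both Aβ arrays lay above every reference array and the 2.5 mg/kg array below all of them.

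**Figure D3:**
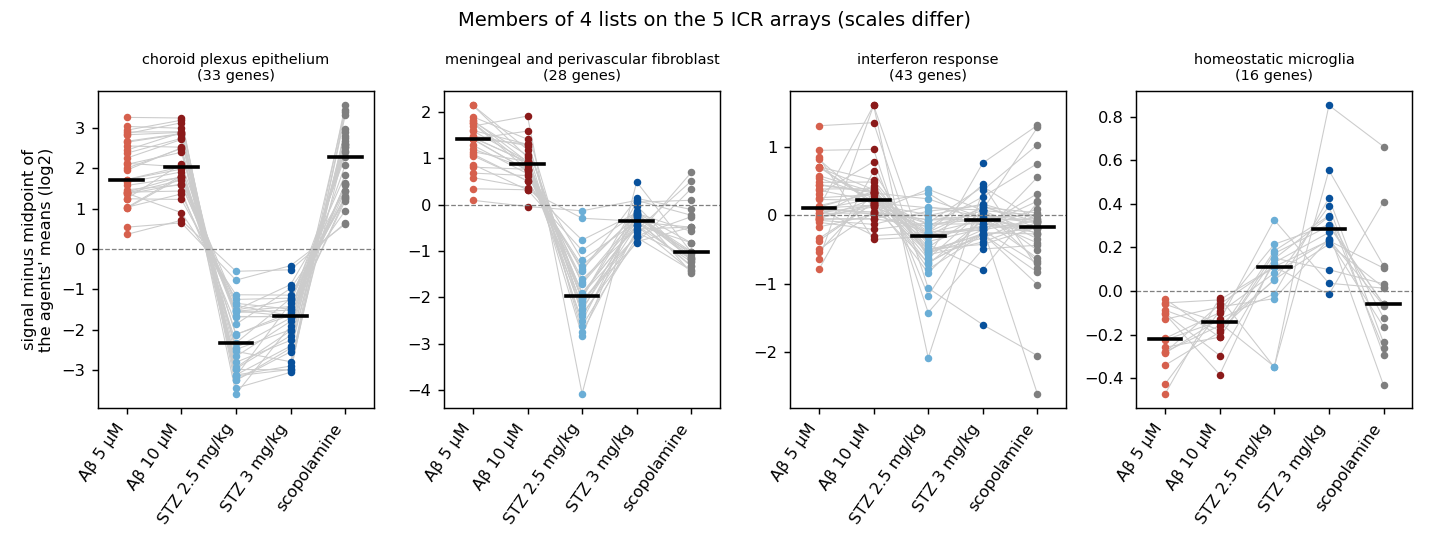
Members of 4 gene lists on the 5 ICR arrays (horizontal axis), each as its log2 signal minus the midpoint of the means of the agents (vertical axis, with a scale of its own in each panel). Points are genes, grey lines join a gene across arrays and black bars are medians. Choroid plexus genes are low on both streptozotocin arrays and high on the scopolamine array, fibroblast genes are lowest with streptozotocin at 2.5 mg/kg, and microglial genes are higher on the streptozotocin arrays by fractions of 1 log2 unit.

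Collagens overlapped with this group. Of 43 collagen genes, 26 were separated higher with Aβ (14 at least 2-fold) and 6 higher with streptozotocin (1 at least 2-fold), with a median difference of 0.55. Of all genes, 19.8% (4.31%) and 27.4% (1.46%) were so. Col8a1 and Col8a2, chains of the short-chain collagen VIII, had the widest gaps. Col8a1, which is also on the choroid plexus list, had 6.87 and 7.36 with Aβ and 7.15 with scopolamine. With streptozotocin it was not well above background (1.73 and 3.54). Col8a2 had 8.36 and 8.22 with Aβ and 3.78 and 4.40 with streptozotocin, and 7.74 with scopolamine. Col3a1, a fibrillar collagen, had 10.12 and 10.01 against 6.44 and 8.25, and 7.26 with scopolamine. Endothelial genes differed less, with 12 of 16 separated higher with Aβ (19.8% of all genes) and a median of 0.37. Vwf, the von Willebrand factor of larger vessels, had the largest difference (12.33 and 12.14 against 9.27 and 10.94), while Pecam1, a pan-endothelial adhesion molecule, had 7.21 and 7.0 against 6.96 and 6.98.

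Leaving out the choroid plexus list gave 813 genes at least 2-fold higher with Aβ and 287 higher with streptozotocin (4.145% and 1.46% of the genes left, beside 4.31% and 1.46% of all genes). Leaving out the choroid plexus, ependymal and fibroblast lists gave 776 and 287 (3.97% and 1.47%). Genes can follow the choroid plexus without being on the list. Over the 8 arrays that the comparison does not use, 491 other genes had a correlation of at least 0.9 with the mean of the list. Of these, 103 (21.0%) were at least 2-fold higher with Aβ and 1 (0.20%) with streptozotocin, beside 4.31% and 1.46% of all genes. This correlation is a description over 8 arrays of both tissues and both strains, so it also picks genes that differ between hippocampus and cortex. Without the 3 lists and these genes, 683 and 286 genes remained (3.58% and 1.50%). The part of choroid plexus, ependymal and meningeal RNA in the differences of other genes was not tested beyond these counts.

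Outside the choroid plexus list and among genes well above background on both Aβ arrays, the 12 genes with the widest gap on the Aβ side (the lower Aβ array minus the higher streptozotocin array) were Tmprss11a, Prr32, Rrh, Ceacam16, Cdh3, Ins1, Vmn2r112, Cltrn, Olfr994, Defb9, Col8a2 and Wdr86. For 10 of them the scopolamine array lay with the Aβ arrays. Cdh3, the cell adhesion molecule P-cadherin, had 6.56 and 6.88 with Aβ, 1.99 and 1.95 with streptozotocin and 6.47 with scopolamine. It was not well above background with streptozotocin, so it was at least 9.21-fold higher with Aβ. Cltrn, which encodes collectrin, an amino acid transport regulator, had 7.79 and 8.01 against 3.77 and 3.73, at least 17.8-fold higher, and 7.92 with scopolamine. Rrh, a retinal opsin-like protein, had 6.62 and 7.13 against 1.90 and 1.90, at least 10.2-fold higher.

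In the other 2 of these genes only the Aβ arrays were well above background among the ICR arrays. Vmn2r112, a vomeronasal receptor gene, had 5.83 and 5.81 with Aβ, 1.77 and 1.77 with streptozotocin and 1.88 with scopolamine, at least 4.93-fold higher with Aβ than with streptozotocin. Olfr994, an olfactory receptor gene, had 6.13 and 8.35 against 2.27 and 2.15, at least 13.2-fold higher, and 3.41 with scopolamine. Receptors of these families have many close relatives, and each of the 2 genes was measured by 1 probe.

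**Figure D4:**
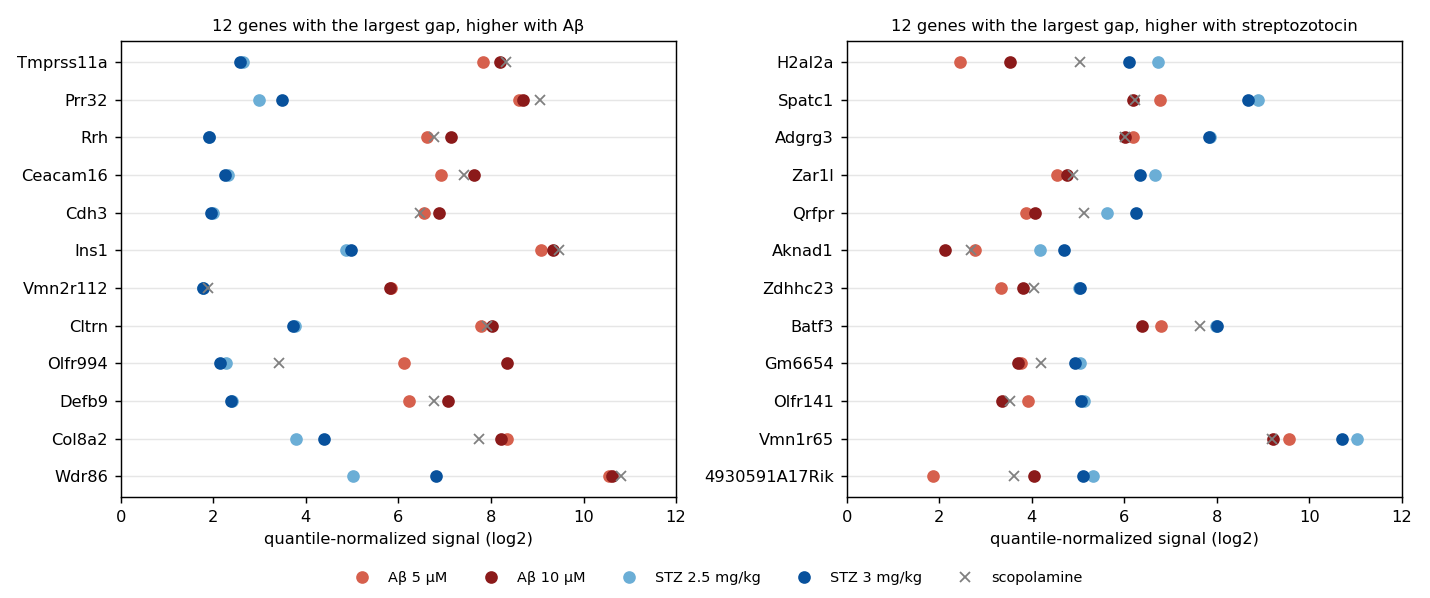
Quantile-normalized log2 signal (horizontal axis) of the 12 genes with the widest gap between the agents in each direction (vertical axis), outside the choroid plexus list, with 1 symbol per ICR array. The genes were taken among those at least 2-fold apart and well above background on both arrays of the brighter agent. On the Aβ side the scopolamine array (cross) lies with the Aβ arrays except for Vmn2r112 and Olfr994, and on the streptozotocin side the gaps are at most 2.58.

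Insulin and its relatives were of interest because streptozotocin is used to disturb insulin signalling. The insulin genes themselves were lower on the streptozotocin arrays. Ins1 had 9.09 and 9.34 with Aβ and 4.86 and 4.97 with streptozotocin, 19.7-fold apart, and Ins2 had 9.66 and 9.89 against 7.13 and 7.25, 6.00-fold apart. The scopolamine array had 9.46 for Ins1 and 9.88 for Ins2, close to the Aβ arrays. The choroid plexus list moved in the same way, with means of 10.26 and 10.51 with Aβ, 6.14 and 6.58 with streptozotocin and 10.47 with scopolamine, and its part in the insulin values was not tested. The 2 genes have nearly the same coding sequence, so their probes may share signal and the split between them is uncertain. Of the binding proteins of insulin-like growth factors, Igfbp2, which is also on the choroid plexus list, had 13.69 and 13.72 against 10.42 and 11.31, and Igfbp3 had 8.19 and 7.84 against 6.49 and 7.51.

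The receptors and kinases downstream differed by little. Of the 35 genes of insulin and IGF signalling, 11 were separated in each direction, 6 were at least 2-fold higher with Aβ and none with streptozotocin, and the median was 0.01. Among all genes, 19.8% were separated higher with Aβ (4.31% at least 2-fold) and 27.4% higher with streptozotocin (1.46%). Insr, the insulin receptor, had 7.19 and 7.29 with Aβ and 7.35 and 7.42 with streptozotocin, a difference of -0.14 (limma adjusted p = 0.559). Pik3r1, the regulatory subunit of PI3 kinase, had 9.83 and 9.71 against 10.23 and 9.99. Slc2a2, which encodes GLUT2, was not well above background on any of the 4 arrays (1.81, 1.87, 1.85 and 1.79). Slc2a4, the insulin-responsive transporter GLUT4, had 8.92 and 9.18 with Aβ, 7.57 and 8.03 with streptozotocin and 7.72 with scopolamine, 2.38-fold higher with Aβ.

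On the streptozotocin side the gaps were narrower. The 12 genes with the widest gap, taken among genes well above background on both streptozotocin arrays, were H2al2a, Spatc1, Adgrg3, Zar1l, Qrfpr, Aknad1, Zdhhc23, Batf3, Gm6654, Olfr141, Vmn1r65 and 4930591A17Rik. Of all genes at least 2-fold higher with streptozotocin, 80 had a gap of at least 1. Only 20 of these were well above background on both streptozotocin arrays. Spatc1, a centrosomal protein known from sperm, had 8.89 and 8.67 with streptozotocin, 6.78 and 6.20 with Aβ and 6.24 with scopolamine, 4.90-fold higher with streptozotocin. Adgrg3, an adhesion G protein-coupled receptor of myeloid cells, had 7.85 and 7.83 against 6.18 and 6.02, and 6.00 with scopolamine. Batf3, a leucine zipper factor of dendritic cells, had 7.99 and 8.01 against 6.79 and 6.39, but 7.64 with scopolamine. Vmn1r65, a vomeronasal receptor gene, was the brightest of the 12 (11.03 and 10.70 against 9.55 and 9.21). H2al2a, a histone variant of sperm, had 6.72 and 6.11 against 2.44 and 3.53 and was at least 10.8-fold higher with streptozotocin, since neither Aβ array was well above background.

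Interferon response genes were more often separated towards Aβ than towards streptozotocin. Of 43 measured genes, 24 were separated higher with Aβ (5 at least 2-fold) and 3 higher with streptozotocin (none 2-fold), with a median difference of 0.45. The shares of all genes were 19.8% (4.31% at least 2-fold) and 27.4%. The median was 0.25 without the 10 µM array and 0.25 without the 2.5 mg/kg array. The largest difference in the list, that of Xaf1, came from 1 of its 2 probes. That probe had 8.88 and 9.12 with Aβ, 3.84 and 2.89 with streptozotocin and 1.91 with scopolamine, while the other had 7.65 and 7.49 against 7.93 and 7.81, and the brightest-probe setting turned the difference from 2.67 to -0.30. Ifitm1, a membrane protein that restricts virus entry, had 10.30 and 10.31 with Aβ, 7.93 and 8.86 with streptozotocin and 8.91 with scopolamine.

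For 3 other members the arrays of each agent lay within 0.5 of each other. Bst2, the virus-tethering protein tetherin, had 9.68 and 9.48 with Aβ and 8.54 and 8.17 with streptozotocin. Gbp2, an interferon-induced GTPase, had 8.89 and 8.89 against 7.83 and 8.02. Isg15, a ubiquitin-like modifier, had 7.96 and 7.72 against 6.88 and 6.95. Other members differed less or overlapped. Irf7, a transcription factor that amplifies the response, was not well above background on any of the 4 arrays. Cxcl10, a chemokine, was highest with Aβ at 10 µM (7.31) but overlapped, with 5.82 at 5 µM and 6.07 with streptozotocin at 3 mg/kg.

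Interferon acts on such genes through the interferon-stimulated response element, whose core is a pair of TTTC half-sites 2 bases apart. The 250 bases upstream of the start were searched on both strands for this core, TTTC, any 2 bases, TTTC, in the RefSeq promoters of GRCm38.p6, where neighbouring matches may overlap. It was found in 17 of the 32 listed genes with a promoter sequence (53.1%), against 3.44% of the 15532 genes on the arrays with one. Counted per promoter and not per gene, 2.98% of all 32851 promoters held it. Among listed genes separated higher with Aβ it was found in 9 of 16, and among the other listed genes in 8 of 16. Of all genes at least 2-fold higher with Aβ, 4.73% held it, and of those at least 2-fold higher with streptozotocin, 3.18%, against 3.44% of all genes on the arrays with a promoter sequence. The stretches of 5 separated genes are shown with the matches in capitals, because they let a reader see the element beside the values above. Each is written 5′ to 3′ on the strand of the gene. They lie at chr8:71537572-71537617 (Bst2, minus strand), chr3:142620589-142620628 (Gbp2, plus), chr4:156200860-156200911 (Isg15, minus), chr7:140955983-140956022 (Ifitm2, minus) and chr19:34640770-34640828 (Ifit1, plus).
Bst2: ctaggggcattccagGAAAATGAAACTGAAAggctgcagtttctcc
Gbp2: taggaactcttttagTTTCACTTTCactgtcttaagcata
Isg15: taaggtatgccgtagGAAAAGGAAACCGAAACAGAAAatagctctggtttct
Ifitm2: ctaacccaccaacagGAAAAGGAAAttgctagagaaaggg
Ifit1: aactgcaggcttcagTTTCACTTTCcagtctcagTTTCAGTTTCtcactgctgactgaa
Isg15 held 3 overlapping matches and Ifit1, whose protein binds viral RNA, held 2 apart. Ifit1 had 7.20 and 6.69 with Aβ against 5.65 and 6.43 with streptozotocin, and Ifitm2, a relative of Ifitm1, had 10.39 and 10.07 against 8.90 and 9.41.

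Antigen presentation genes differed by class. Of 20 genes of MHC class I and peptide loading, 13 were separated higher with Aβ and 1 higher with streptozotocin (19.8% and 27.4% of all genes), with a median of 0.40. H2-K1, a classical class I heavy chain, had 10.89 and 10.90 with Aβ and 9.99 and 10.13 with streptozotocin. H2-D1, the other, had 11.92 and 11.13 against 10.07 and 10.54, and these heavy chain genes are close enough in sequence that probes may be shared. B2m, the common light chain, had 13.09 and 12.86 against 12.58 and 12.61. Of 10 class II genes 3 were separated in each direction, and the pair medians ran from -0.05 to 1.07. Cd74, the invariant chain, had 9.79 and 8.81 against 5.77 and 8.01, with the 2.5 mg/kg array far below the other 3. That array was also the lowest for fibroblast genes.

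Complement genes went both ways. C1qa, C1qb and C1qc, the chains of C1q and products of microglia, were separated with slightly higher values with streptozotocin. C1qc, for example, had 11.23 and 11.23 with streptozotocin against 10.55 and 11.16 with Aβ. Of the 19 listed genes, 12 were separated higher with Aβ (7 at least 2-fold) and 4 higher with streptozotocin, beside 19.8% (4.31%) and 27.4% of all genes. The median was 0.83, with pair medians of 1.01 and 1.01 against the 2.5 mg/kg array and of 0.50 and 0.24 against the 3 mg/kg array. Serping1, the C1 inhibitor, had 10.62 and 10.21 with Aβ and 8.17 and 9.14 with streptozotocin. C4b, a component that astrocytes also make, had 12.87 and 12.77 against 11.85 and 12.08. C2 had 11.10 and 10.49 against 8.0 and 9.63. For Serping1 and C2 the 2.5 mg/kg array was again the lowest, in the order of the fibroblast list, whose part in these values was not tested.

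Homeostatic genes of microglia went the other way. Of 16 measured genes, 14 were separated with higher values with streptozotocin and none with higher values with Aβ, beside 27.4% and 19.8% of all genes. The median difference was -0.38 and none reached 2-fold. An unadjusted limma p under 0.05 was found for 6 of the 16, beside 12.6% of all genes (5.66% higher with streptozotocin). Every member was well above background on all 4 arrays. Selplg, a selectin ligand that microglia express at rest, had 9.24 and 9.29 with Aβ and 9.67 and 9.80 with streptozotocin, a difference of -0.47. Sall1, the transcription factor of microglial identity, had 8.06 and 8.21 against 8.58 and 8.75. P2ry12, the purine receptor that guides microglial processes, had 10.03 and 9.76 against 10.29 and 10.48.

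The exceptions among microglial genes were Trem2, the lipid receptor of activated microglia, and Fcrls, an Fc receptor-like protein. Trem2 had 11.12 and 11.03 with Aβ and 10.83 and 11.73 with streptozotocin, and Fcrls had 7.35 and 7.79 against 7.48 and 8.68. Tyrobp, the signalling adaptor of Trem2, lay just outside overlap (11.24 and 11.25 against 11.41 and 11.28), and on the scopolamine array it was higher than on all 4 (11.71). On the scopolamine array 9 of the 16 genes lay on the Aβ side. The median difference of the microglial list stayed negative in all 11 alternatives, between -0.27 and -0.50.

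Macrophages of the brain's borders are close relatives of microglia. Of 17 markers of these and of blood leukocytes, 8 were separated higher with Aβ (7 at least 2-fold) and 7 higher with streptozotocin (2 at least 2-fold), with a median of 0.01. The shares of all genes were 19.8% (4.31%) and 27.4% (1.46%). The 2 members at least 2-fold higher with streptozotocin were the B cell genes Cd79a and Cd79b, and macrophage genes were among the 7 on the Aβ side. Among those well above background on both Aβ arrays, Fcna had the widest gap, with 5.60 and 5.34 with Aβ. It was not well above background with streptozotocin (2.56 and 3.64) and was at least 3.50-fold higher. Mrc1, the mannose receptor, had 8.60 and 8.33 with Aβ and 6.04 and 7.60 with streptozotocin. Pf4, a platelet and macrophage chemokine, had 9.44 and 9.19 against 6.91 and 8.20. Lyve1, a hyaluronan receptor, had 6.49 and 5.80 with Aβ, was not well above background with streptozotocin (2.05 and 4.42) and was at least 4.25-fold higher. Border macrophages live in the meninges and the choroid plexus stroma. Fcna, Mrc1, Pf4 and Lyve1 were lowest at 2.5 mg/kg, as were most fibroblast genes. The T cell gene Cd3e differed by -0.22 and Cd4 by -0.09, and Cd79a was not well above background on any of the 4 arrays. S100a8 and S100a9, calcium-binding proteins of neutrophils, were higher at 5 µM (6.77 and 8.85) than at 10 µM (5.12 and 7.17), and had 4.82 and 6.82 at 2.5 mg/kg.

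Astrocyte genes were mixed. Gfap, the intermediate filament by which reactive astrocytes are known, had 10.38 and 10.27 with Aβ and 10.19 and 10.46 with streptozotocin, with overlapping ranges and a difference of 0.00. Of 21 genes of reactive astrocytes, 11 were separated higher with Aβ (7 at least 2-fold) and 2 higher with streptozotocin, beside 19.8% (4.31%) and 27.4% of all genes, with a median of 0.24. Among those well above background on both Aβ arrays, the widest gaps were those of Timp1, a metalloproteinase inhibitor (7.34 and 7.53 against 4.26 and 5.90), Cp, the copper oxidase ceruloplasmin (7.83 and 7.23 against 4.96 and 5.81), Emp1 (9.22 and 9.37 against 7.43 and 7.97) and Aspg, an asparaginase (10.83 and 11.02 against 9.61 and 9.49). Timp1, Cp and Vim are made by fibroblasts or choroid plexus too, and Vim had 12.35 and 11.97 against 10.67 and 11.22. Serpina3n, a protease inhibitor of reactive astrocytes, had 10.46 and 10.54 against 10.44 and 10.42. Of 12 resting astrocyte genes 1 was separated higher with Aβ and 4 higher with streptozotocin, with a median of -0.06.

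Genes of the excitatory synapse were slightly higher with streptozotocin. Of 34 genes of glutamate receptors and the excitatory synapse, 19 were separated in that direction and none in the other (27.4% and 19.8% of all genes), with a median of -0.22 and none 2-fold apart. Gria3, an AMPA receptor subunit, had 10.55 and 10.56 with Aβ and 10.82 and 10.78 with streptozotocin, and Grm2, a presynaptic metabotropic receptor, had 9.49 and 9.59 against 9.82 and 9.82. On the scopolamine array 28 of the 34 lay on the Aβ side. The median of all genes after quantile normalization, which gives all arrays 1 distribution, was -0.03. Of 20 genes of vesicle release 9 were separated higher with streptozotocin (27.4% of all genes) and 1 with Aβ (median -0.15). Of 18 markers of the hippocampal fields 2 were separated higher with Aβ and 6 higher with streptozotocin (median -0.06), near the shares of all genes. Wfs1, an endoplasmic reticulum protein of CA1 pyramidal cells, had 13.35 and 13.63 against 14.78 and 14.09, and 13.26 with scopolamine.

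Immediate early genes, which neurons switch on within minutes of activity, had 11 of 21 members separated higher with streptozotocin and 2 higher with Aβ (27.4% and 19.8% of all genes), with a median of -0.31 and pair medians from -0.54 to -0.07. For the 3 members named here the array at 2.5 mg/kg was the highest of the 4. Arc, a synaptic plasticity protein, had 14.24 on it and 13.05 at 3 mg/kg, beside 12.63 and 12.72 with Aβ. Npas4, an activity-dependent transcription factor and the one member 2-fold apart, had 10.90 and 9.40 with streptozotocin against 9.02 and 9.24 with Aβ. Fos had 9.29 and 8.62 with streptozotocin against 8.24 and 8.30 with Aβ. On the scopolamine array, taken 30 min after the injection, Npas4 was 10.79 and Fos 9.57. Of 16 circadian clock genes 10 were separated higher with streptozotocin and 1 with Aβ, beside the same shares of all genes (median -0.24, with array pairs from -0.19 to -0.30). Per1, a core repressor of the clock, had 13.22 and 13.16 with streptozotocin against 12.91 and 12.70 with Aβ. Ciart, another repressor, had 8.24 and 8.22 with streptozotocin against 7.89 and 7.61 with Aβ. The hour of dissection is not given in the sources used here.

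Averaged over probes, the genes by which Alzheimer disease is best known did not separate the agents. App, the precursor of Aβ, had 15.93 and 15.60 with Aβ and 15.65 and 15.80 with streptozotocin. Apoe had 17.16 and 17.06 against 16.90 and 17.07, and Mapt, which encodes tau, 14.72 and 14.47 against 14.47 and 14.37. All 3 overlapped between the agents, Mapt only as the mean of its 3 probes. Each of these probes was separated, and they went both ways. The one higher with Aβ had 14.15 and 13.32 with Aβ against 13.21 and 12.76 with streptozotocin. The others were higher with streptozotocin, with differences of -0.09 and -0.14. Of 20 genes of APP processing and amyloid clearance, 3 were separated higher with Aβ and 4 higher with streptozotocin, beside 19.8% and 27.4% of all genes. Bace2, a relative of the beta secretase, was the one at least 2-fold apart (8.75 and 8.50 against 6.69 and 8.19).

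Streptozotocin damages DNA by alkylation, and genes of p53 and alkylation repair were read for that reason. Of 29 genes, 4 were separated higher with Aβ and 9 higher with streptozotocin, none of them 2-fold, with a median of -0.05. These counts are near the shares of all genes (19.8% and 27.4%). Cdkn1a, the p53 target that arrests the cell cycle, had 5.22 and 4.89 with Aβ and 4.87 and 4.89 with streptozotocin. Pmaip1, the death effector NOXA, had 7.0 and 7.05 against 7.88 and 7.38, and Bbc3, the effector PUMA, had 10.19 and 10.30 against 10.62 and 10.54. Mitochondrial and ribosomal genes lay close together. The 78 genes of oxidative phosphorylation had a median difference of 0.04 and the 83 cytosolic ribosomal protein genes 0.03. No gene of the former and 1 of the latter (Rpl39l) was at least 2-fold apart, beside 5.77% of all genes. Of the 78 genes, 22 were separated higher with Aβ and 8 higher with streptozotocin. Of the 83 genes, 26 and 5 were so, beside 19.8% and 27.4% of all genes. Antioxidant, heat shock, glucocorticoid-responsive, glycolysis, cholesterol, neuropeptide and GABA lists had medians between -0.09 and 0.05. Scaled to the 75th percentile, where the median of all genes was -0.07, the antioxidant, glucocorticoid, glycolysis, mitochondrial and ribosomal medians turned below 0. Newborn neuron genes had a median of -0.16, markers of neighbouring regions -0.08, pituitary hormones 0.05 and red blood cell genes 0.16. Myelin genes differed between the Aβ doses more than between the agents, with pair medians from -0.41 to 0.47.

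**Figure D5:**
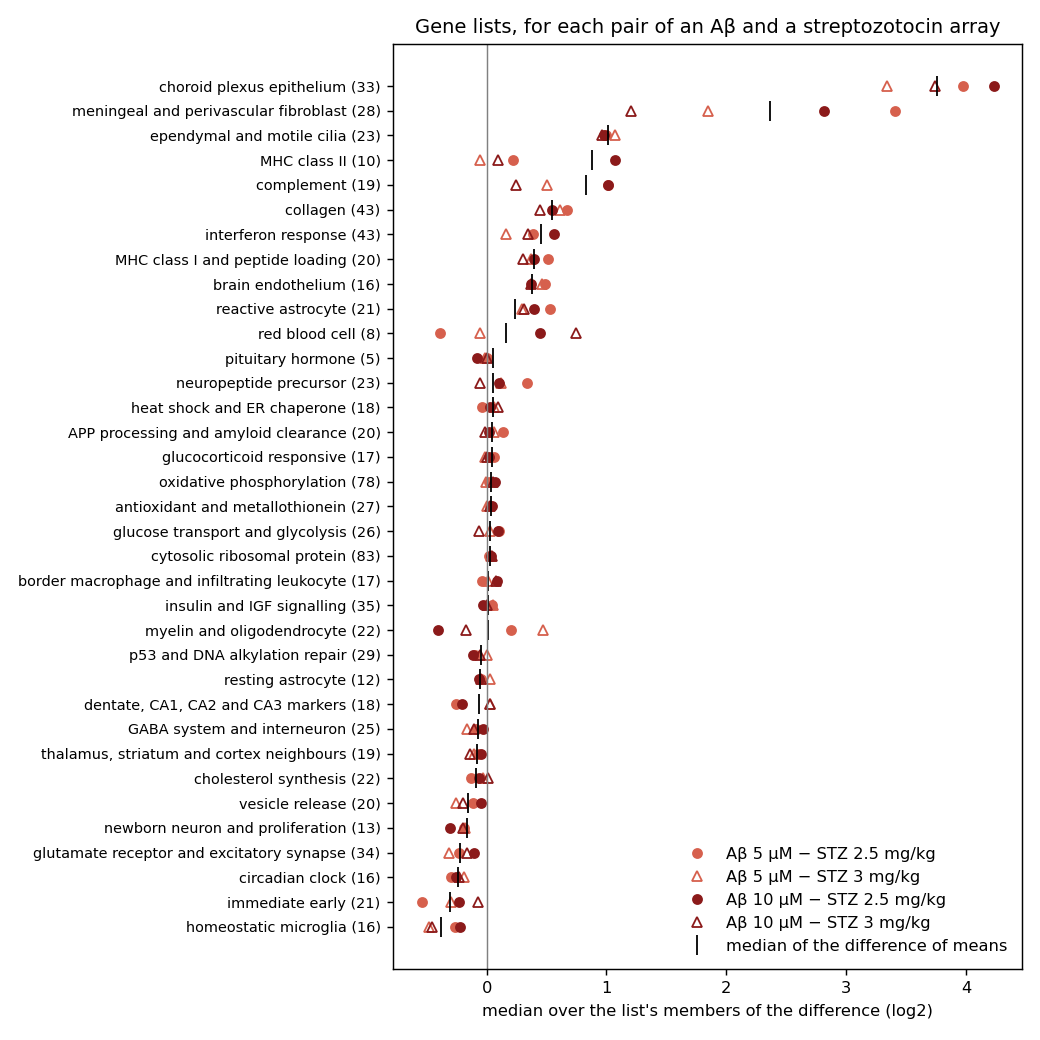
Median over the members of 35 gene lists (vertical axis, with the number of genes measured) of the difference between 1 Aβ and 1 streptozotocin array (horizontal axis, log2), for each of the 4 array pairs, and of the difference of the means (black bar). The choroid plexus list lies between 3.34 and 4.23, the fibroblast list is spread from 1.21 to 3.40, the microglial list lies below 0 for every pair, and most other lists are within 0.5 of 0.

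The scopolamine array, which the rule did not use, was placed on one or the other side of the midpoint of the agents for every gene. Over all 19647 genes it lay on the Aβ side for 60.4%. Among the 846 genes higher with Aβ it lay on the Aβ side for 451 (53.3%), and among the 287 higher with streptozotocin for 195 (67.9%). It was above both Aβ arrays for 166 of the 846 genes and below both streptozotocin arrays for 64. Of the 287 genes, it was below both Aβ arrays for 75 and above both streptozotocin arrays for 15. Without the 3 lists of other cell types and the genes that follow the choroid plexus, the share among the genes higher with Aβ was 45.4%. So the scopolamine array, from mice killed 30 min after an injection, was with the Aβ arrays for choroid plexus genes and not for most fibroblast genes. For comparison, an Aβ and a scopolamine array had a median absolute difference of 0.14 over all genes, and a streptozotocin and a scopolamine array 0.20 and 0.19.

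Doses of an agent can be set beside the difference of the agents. The Aβ arrays were at least 2-fold apart for 575 genes higher at 10 µM and 621 higher at 5 µM, and the streptozotocin arrays for 812 higher at 3 mg/kg and 538 higher at 2.5 mg/kg. A pair of 1 Aβ and 1 streptozotocin array gave between 977 and 1371 genes higher with Aβ and between 584 and 740 higher with streptozotocin. The number of genes 2-fold higher with streptozotocin in such a pair was thus of the size found between doses. Of the genes with several probes, 153 were at least 2-fold higher with Aβ, and in 107 of these every probe was separated the same way and in 8 a probe was separated the other way, while 21 were higher with streptozotocin and 12 of these had every probe the same way and 0 a probe the other way.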

How the data were processed

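RNA of hippocampus, pooled from 3 animals per array, was labelled and hybridised by the authors to 1-colour Agilent mouse 44K arrays. The deposited files hold the scanner intensity of each spot, as Agilent's processed signal with median and background signals, and a matrix of values that the authors had filtered and quantile normalized. The Feature Extraction version is not given in the sources used here. From the deposited intensity, outlier and control spots were left out, spots of a probe averaged, and log2 values quantile normalized over 12 arrays. Probes below 1.4 times the local background on any array were removed, leaving 36519 of 39429. Gene symbols came from the files and RefSeq. Probes of a gene were averaged (19647 genes). Probe number and brightness, not read depth, limit the precision.

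The agents were compared by separation of their arrays and by limma 3.58.1 (R 4.3.3), tested on simulated data, with Benjamini-Hochberg adjustment. Figures and sums used Python 3.11.15. Named genes were the 12 with the widest gap in each direction outside the choroid plexus list and up to 4 per list by gap. Both kinds were taken among genes separated, at least 2-fold apart and well above background on both arrays of the brighter agent. Defining markers and Slc2a2, Insr, App, Apoe, Mapt, Gfap, Tyrobp and Cdkn1a were named whatever their values. Other members were named after their values were seen. The members and lists were chosen with earlier results of these data known. Alternatives were scaling to the 75th percentile, quantile normalization of the 5 ICR arrays, normexp (offset 50), the deposited matrix, other filters, the brightest probe, fold thresholds of 1.5 and 3, and leaving out each array. The files used hold no mean signal, so normexp was run on the median signal. Some genes are not reported here.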

Additional observations from a re-analysis of the deposited data

How the results depend on the processing

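The count of genes at least 2-fold higher with Aβ (846) was 257 after normexp, 1457 at 1.5-fold and 447 at 3-fold, and 830 to 1174 when 1 array was left out. The count higher with streptozotocin (287) depended on more settings. It was 187 with scaling to the 75th percentile, 8 after normexp, 137 with the deposited matrix, 164 for probes well above background, 719 at 1.5-fold, 83 at 3-fold and 444 to 586 when 1 array was left out, where separation is easier to meet. For genes well above background on both brighter arrays, an alternative chosen after seeing the data like the 2 that left out further cell types or genes following the choroid plexus list, it was 74. The limma count (0) was 49 with scaling to the 75th percentile, 249 after normexp, 52 with the deposited matrix and 166 for probes well above background, and 0 in the other settings run. The choroid plexus median (3.75) was 2.53 after normexp and 4.15 without a filter on dim probes. The interferon median (0.45) was 0.25 after normexp and 0.25 to 0.54 when 1 array was left out. The share of genes higher with streptozotocin for which scopolamine lay on the Aβ side (67.9%) was 74.9% with scaling to the 75th percentile, 100% of 8 genes after normexp and 61.6% for probes well above background. The cause of these changes was not tested. Of 1087 values of 99 separated named genes under alternatives, 3 had the opposite sign, Xaf1 with the brightest probe (-0.30) and Cdkn1a for probes well above background (-0.041) and with the brightest probe (-0.0404). No paired analysis was possible because the replicate numbers were given in accession order and pair no samples. Slide or scan as a block was not run, since the files used hold neither.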
